A study of Rattus norvegicus with 24 samples.

Results

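The genes described here are Tnfrsf11a, which encodes the receptor RANK, and Tnfrsf11b, which encodes its soluble decoy osteoprotegerin. They were taken by symbol from the array's annotation, which gave 2 genes with 1 probe set each, out of 14217 genes and 31099 probe sets. The pair was selected on its measured restraint values: it was chosen because the signal of Tnfrsf11a was higher and that of Tnfrsf11b lower in stressed rats than in controls, so the restraint values of both are given as a description, without a test. Probe set 1369407_at stands for Tnfrsf11b and was annotated from a RefSeq transcript, while 1394313_at stands for Tnfrsf11a and was annotated from an expressed sequence tag. In the RefSeq gene table of the rat assembly GRCr8, the name Tnfrsf11a is also an older synonym of Zcchc2, its neighbouring gene, and no probe set of the array carried the symbol Zcchc2. The gene detected by 1394313_at therefore rests on the platform's annotation.

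RANK is a membrane receptor that is switched on by its ligand RANKL, the product of Tnfsf11, and signals through the adaptor TRAF6 to NF-kappaB, MAP kinases and NFATc1. Osteoprotegerin is secreted, lacks a membrane anchor and binds RANKL before it can reach RANK; it also binds TRAIL, the product of Tnfsf10. The system is best known from bone, where RANK drives the formation of osteoclasts, and in mice and rats RANKL and RANK in the brain are known for a role in fever that runs through prostaglandin E. Glucocorticoid hormones, which restraint releases, are known to lower osteoprotegerin in bone cells.

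RNA from the hypothalamus of 18 male rats of the outbred Wistar strain, 7 weeks of age, was measured on 3' oligonucleotide arrays, 1 rat per array. In the linalool + stress group, 6 rats were restrained in wire mesh for 2 h while 20 µL of (R,S)-linalool, a floral-smelling monoterpene alcohol, evaporated into a 40 L box. The stress group of 6 rats was restrained for 2 h without the odour, and the 6 control rats were not restrained. The authors normalised stress with control arrays as set 1, and the same stress arrays with the linalool arrays as set 2, so linalool and control rats were never set against each other. Each block was cut by landmarks and holds many cell types, so fewer cells of a type and less RNA per cell cannot be told apart. The hypothalamic transcripts Avp, Oxt and Pmch had log2 signals of 11.81 ± 0.571, 10.94 ± 0.900 and 11.89 ± 0.439 in controls (SD, n = 6), and Crh had 7.82 ± 0.0332.

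The deposited values are log2 signals, and for 80.9% of genes in set 1 and 81.0% in set 2 the rats of a group differed by almost nothing (a residual SD under 0.01, the SD left within groups). Log2 differences of such compressed genes are not readable as fold changes, and differences are given for them in residual SDs. Neither receptor was compressed. The residual SD of Tnfrsf11a was 0.165 in set 1 and 0.148 in set 2, and that of Tnfrsf11b was 0.158 and 0.157, and for Tnfrsf11a 92.8% and 95.4% of genes had a smaller one, for Tnfrsf11b 92.4% and 95.9%. The number of arrays limits the precision of all values.

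The first comparison set restraint against no restraint. Tnfrsf11a was higher in stressed rats, with a lowest, median and highest log2 signal of 8.99, 9.22 and 9.35, against 8.34, 8.65 and 8.85 in controls. Every stressed rat lay above every control. The lowest stressed rat was replicate 6, and the lowest controls were replicates 6 and 5, at 8.34 and 8.47. The group means were 9.21 ± 0.125 in stressed rats and 8.63 ± 0.196 in controls (SD, n = 6 each), a difference of 0.58 (SE 0.0933) or 1.49-fold on the deposited scale.

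Tnfrsf11b was lower in stressed rats. Its lowest, median and highest log2 signals were 8.18, 8.40 and 8.64 in stressed rats, against 8.81, 9.06 and 9.27 in controls. Again the groups did not overlap, with every stressed rat below every control. The lowest stressed rat was replicate 1 and the highest control replicate 2. The means were 8.41 ± 0.158 in stressed rats and 9.04 ± 0.158 in controls (SD, n = 6 each), a difference of -0.63 (SE 0.0896) or 0.647 times the control signal.

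Over all 14217 genes, groups without overlap were found for 1.86% in the restraint comparison, 1.2% with stressed rats higher and 0.668% with stressed rats lower. Both receptors belong to that share by the way they were chosen, and nothing is read from it. In residual SDs the differences were 3.52 for Tnfrsf11a and -3.98 for Tnfrsf11b, beside a median of 0.110 over all genes. A higher signal of the signalling receptor thus stood beside a lower signal of its decoy in the same 6 stressed rats.

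**Figure D1:**
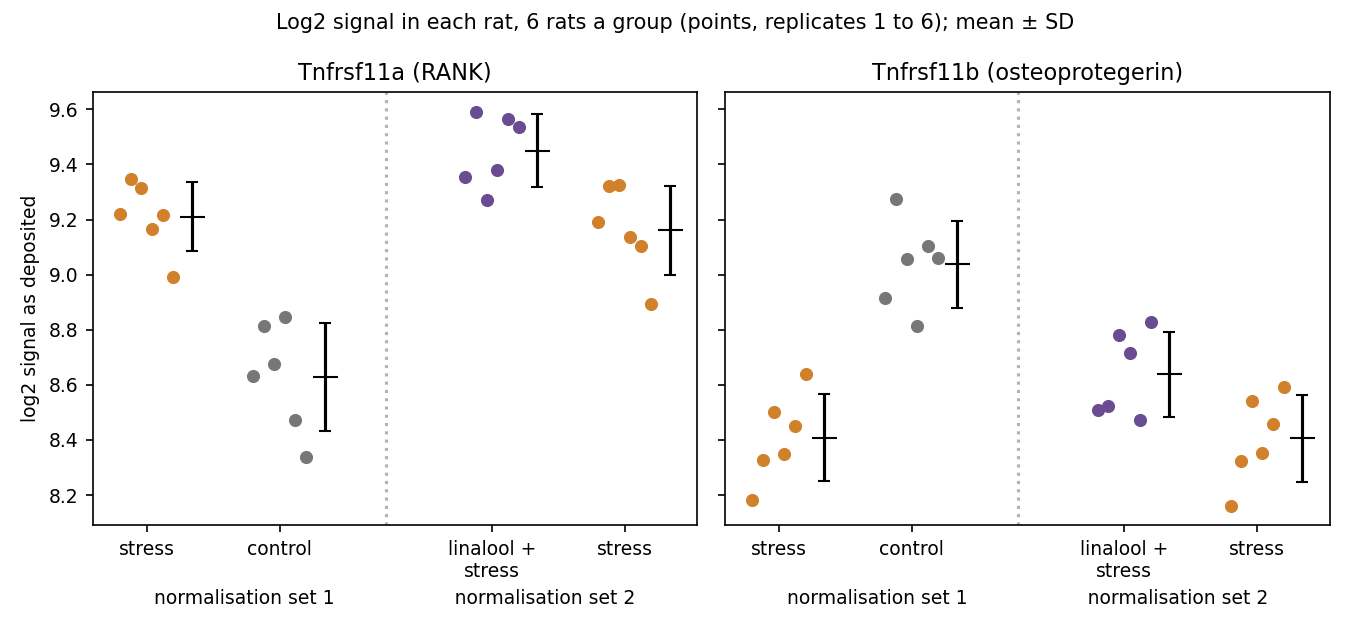
Log2 signal as deposited (vertical axis) of Tnfrsf11a and Tnfrsf11b in each rat, 6 rats a group, with mean ± SD; the dotted line separates the normalisation sets, and the orange points on both sides are the same stressed rats. For Tnfrsf11a all stressed rats lie above all controls, for Tnfrsf11b all lie below them, and in set 2 the linalool + stress points reach higher than the stress points for both genes and overlap them.

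The second comparison asked what the odour added under restraint. It uses the 6 stressed rats, renormalised, that also entered the contrast by which the genes were chosen. Tnfrsf11a had a lowest, median and highest log2 signal of 9.27, 9.46 and 9.59 in linalool + stress rats, against 8.89, 9.16 and 9.33 in stress rats. Of the linalool + stress rats, 5 of 6 lay above every stress rat, and 4 of 6 stress rats lay below every linalool + stress rat. The means were 9.45 ± 0.132 in linalool + stress rats and 9.16 ± 0.162 in stress rats (SD, n = 6 each).

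Tnfrsf11a rose with linalool by 0.29 (SE 0.0835, 95% interval 0.103 to 0.473, 1.22-fold; limma, adjusted p = 0.0254 over all genes). The exact permutation test over the 924 splits of the 12 arrays gave a two-sided unadjusted p = 0.00866. In this comparison 29.7% of all genes passed the threshold of an adjusted p of 0.05, 20% higher and 9.71% lower, and 83.4% of genes had a smaller difference in residual SDs than Tnfrsf11a. A call for 1 of the 2 receptors is near that background and is no result particular to the pair. The call also ended when each array was centred on its median (adjusted p = 0.0532), and when stress rat 5 (adjusted p = 0.050) or linalool + stress rat 2, 5 or 6 (adjusted p = 0.0555, 0.0523 and 0.0516) was left out.

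Tnfrsf11b did not pass. Its lowest, median and highest log2 signals were 8.47, 8.62 and 8.83 in linalool + stress rats, against 8.16, 8.41 and 8.59 in stress rats. The groups overlapped: 3 of 6 linalool + stress rats lay above every stress rat. The means were 8.64 ± 0.155 in linalool + stress rats and 8.41 ± 0.158 in stress rats (SD, n = 6 each).

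The difference of Tnfrsf11b was 0.23 (SE 0.0887, 95% interval 0.0363 to 0.430, limma, adjusted p = 0.0734 over all genes), and the exact permutation test gave a two-sided unadjusted p = 0.0346. Without stress rat 6 the adjusted p was 0.0489. In residual SDs the difference of Tnfrsf11a was 1.95 and that of Tnfrsf11b 1.49, beside a median of 0.223 over all genes. Thus the receptor had a higher signal in restrained rats with the odour than without it, as it had in restrained rats against controls, while the decoy was lower in the first comparison and had a positive difference in the second. The comparisons share the stress rats, and a difference between them was not tested. Tnfrsf11b was chosen for its low values in these same rats, which favours a positive difference in the second comparison. The linalool difference, interval and p-values of Tnfrsf11b carry that bias, so nothing is read from the change of sign.

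**Figure D2:**
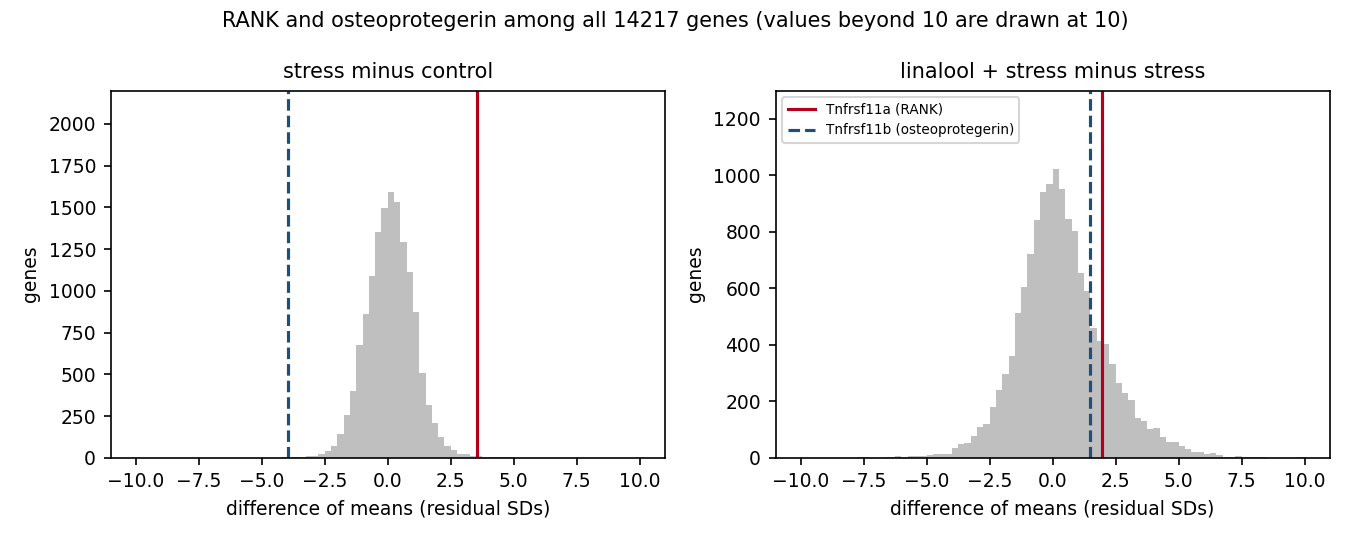
Differences of group means in residual SDs (horizontal axis) for 14217 genes, as the number of genes per bin (vertical axis), with lines for Tnfrsf11a (solid) and Tnfrsf11b (dashed). In the left panel, stress minus control, the lines stand at 3.52 and -3.98 at the edges of the distribution, which is how the genes were chosen; in the right panel, linalool + stress minus stress, they stand at 1.95 and 1.49 inside it.

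Array controls, bacterial and phage sequences that no rat expresses, were also compared. With linalool 19 of 45 passed, 15 higher and 4 lower (differences of -0.19 to 0.34), against 1 of 45, lower, after restraint. Their p-values were adjusted over the 57 array controls alone, so these counts are not on the threshold used for all genes. Array processing and the odour cannot be told apart in set 2. The differences of both receptors with linalool lie within the range of these controls.

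The 6 stressed rats appear in both sets, which shows how far renormalisation moved each receptor. For Tnfrsf11a the set 2 value minus the set 1 value ranged from -0.11 to 0.01 and averaged -0.05, and the 6 values correlated between the sets at r = 0.975. For Tnfrsf11b the shift ranged from -0.04 to 0.04, with r = 0.984. The median r over all genes was 0.971. These shifts are smaller than the differences between the groups.

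Within groups the pair was examined without using the contrast that chose it. Each rat's deviation from its group mean, in residual SDs, was taken over 18 rats, with stress rats from set 1. Tnfrsf11a and Tnfrsf11b had r = -0.306 and Spearman's rho = -0.261 (permutation within groups, p = 0.247 and 0.324, adjusted p = 0.302 for r over 11 relations computed). Rats with more RANK signal than their group were thus not shown to have less osteoprotegerin signal. Over the 12 arrays of set 2 the levels had r = 0.26, and over those of set 1 r = -0.86, which the choice of genes fixes.

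Within groups both receptors correlated with the endothelial marker score, in opposite directions, but neither relation passed in every setting. The markers were 11 measured of 12 genes of the vessel lining, among them Cldn5, a tight junction protein, and Kdr, a receptor of the growth factor VEGF. With their mean score Tnfrsf11b had r = 0.656 and rho = 0.701 over 18 rats (permutation p = 0.00531 for r and 0.00307 for rho, adjusted p = 0.0456 and 0.0338 over 11 relations). Within the groups r was 0.704 in linalool + stress, 0.588 in stress and 0.714 in control rats, 6 each. Without the 2 rats farthest from the median score r was 0.660 and no longer passed (adjusted p = 0.0924).

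Tnfrsf11a had r = -0.681 and rho = -0.641 with the same score (permutation p = 0.00829 for r and 0.0137 for rho, adjusted p = 0.0456 and 0.0753). The within-group values were -0.592, -0.602 and -0.754 in linalool + stress, stress and control rats. Without the 2 farthest rats r was -0.496 (adjusted p = 0.184), so the call for Tnfrsf11a rests on those rats. All 11 markers correlated below 0 with Tnfrsf11a, from -0.659 for Kdr to -0.0208 for Abcb1a, and all 11 above 0 with Tnfrsf11b, from 0.225 for Abcb1a to 0.642 for Tek. Such agreement in sign was not particular to endothelial markers. All 14 meningeal markers and 8 of 10 pericyte and smooth muscle markers were also below 0 with Tnfrsf11a. With Tnfrsf11b all 10 pericyte and smooth muscle markers were above 0, and meningeal markers split, 6 above and 8 below. The share over all genes was not computed. Of the 11 endothelial markers, 5 were compressed in set 1 and 6 in set 2, and Tek had a control SD of 0.000156. The score weighs compressed markers like the others, so both relations rest in part on values that hardly vary.

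The other 8 relations with scores did not pass. Tnfrsf11a had r = -0.637 with pericyte and smooth muscle markers (adjusted p = 0.0569), -0.464 with meningeal markers (adjusted p = 0.208), -0.375 with microglial markers (adjusted p = 0.302) and 0.532 with glucocorticoid-induced genes (adjusted p = 0.0569), each over 18 rats by permutation. For Tnfrsf11b the values were 0.481, -0.0226, -0.225 and -0.52 with the same 4 scores (permutation, adjusted p = 0.109, 0.940, 0.462 and 0.0848).

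**Figure D3:**
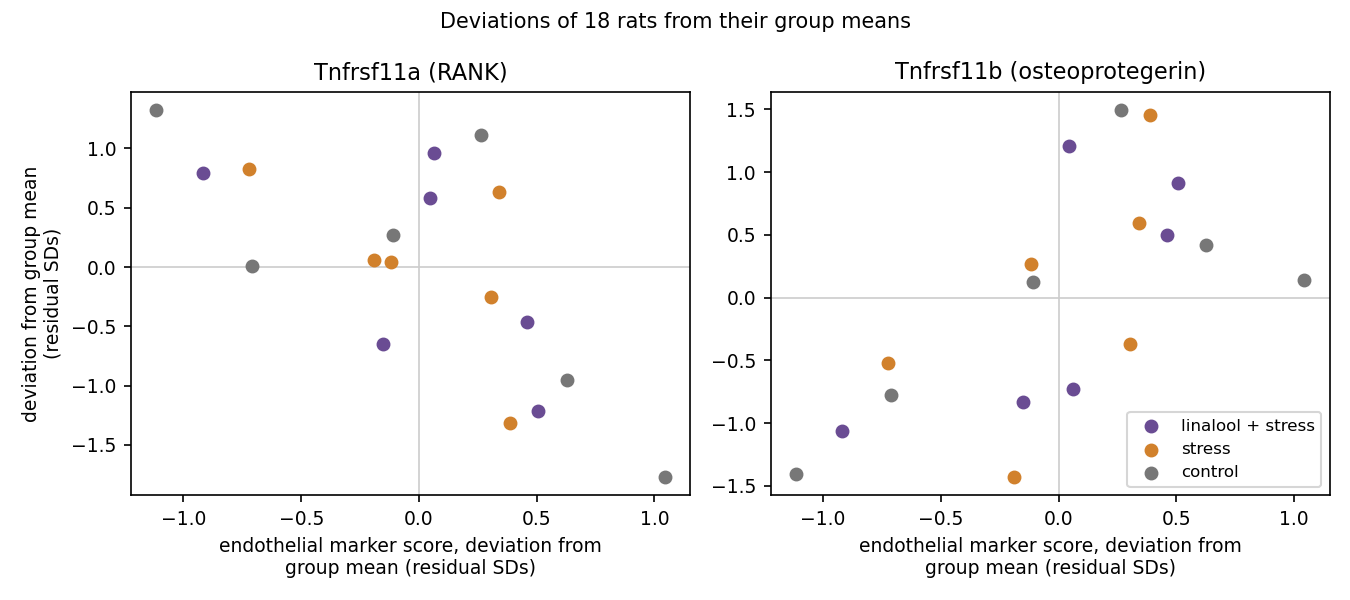
Deviation of each of 18 rats from its group mean, in residual SDs, for the endothelial marker score (horizontal axis) against Tnfrsf11a (left) and Tnfrsf11b (right); colours give the groups, with stress rats from set 1. The points fall from upper left to lower right for Tnfrsf11a (r = -0.681) and climb for Tnfrsf11b (r = 0.656).

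The ranges of the endothelial score overlapped between groups. After restraint it ranged from -1.23 to -0.118 residual SDs in stressed rats and from -0.611 to 1.55 in controls. Of its 11 markers, 2 fell and none rose (18.2%, beside 0.71% of all genes called and 0.225% lower): Kdr fell by 0.64 (adjusted p = 0.0302) and Slco1c1, a thyroxine transporter of brain vessels, fell by 0.25 (adjusted p = 0.0492). With linalool the score ranged from -0.469 to 0.956 in linalool + stress rats and from -1.41 to 0.205 in stress rats. Of its 11 markers 2 rose with linalool and none fell (18.2%, beside 29.7% of all genes called and 20% higher). Esam, an endothelial adhesion molecule, rose by 0.14 (limma, adjusted p = 0.000197) and Cldn5 by 3.26 residual SDs (adjusted p = 0.00234). The SD of Esam was 8.40e-05 in the stress rats of set 1 and 0.0225 in the same rats of set 2.

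With that score as a covariate, an alternative chosen after seeing the data, the restraint difference was 0.40 for Tnfrsf11a and -0.47 for Tnfrsf11b. The linalool difference became 0.44 for Tnfrsf11a (limma, adjusted p = 0.0101) and 0.06 for Tnfrsf11b (adjusted p = 0.668). In that setting 3185 of 14217 genes were called with linalool. The score correlated with the receptors in opposite directions in these same rats, so the 2 shifts add no support. The restraint calls over all genes, 101, numbered 0 with this score or the meningeal score as a covariate in limma (1101 and 1180 genes at an unadjusted p under 0.05) and 2 without controls 4, 5 and 6, so the restraint calls named here, those of Kdr and Slco1c1 included, depend on these settings. Kdr and Slco1c1 are themselves part of the endothelial score, so the loss of their calls with that covariate was partly fixed in advance.

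Meningeal markers moved with the control rats. Over 14 markers, of which Col1a1 had a control mean of 9.31, the mean log2 level ranged from 8.34 to 8.64 in stressed rats and from 8.28 to 10.17 in controls, highest in controls 5 and 6, which were also lowest for Tnfrsf11a. Of the 14 markers 0 passed in limma's test after restraint (10 had an unadjusted p under 0.05), with a median difference of -1.42 residual SDs. Without controls 4, 5 and 6 together, the restraint differences were 0.50 for Tnfrsf11a and -0.67 for Tnfrsf11b. With the meningeal score as a covariate they were 0.44 and -0.62. With linalool 1 of the 14 rose (7.14%, beside 29.7% of all genes called), Mgp, by 0.39 (adjusted p = 0.0126), and the markers ranged from 8.45 to 8.72 in linalool + stress rats and from 8.42 to 8.61 in stress rats.

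The remaining marker lists had 0 members past the threshold in limma after restraint: 10 pericyte and smooth muscle genes, 9 astrocyte, 12 microglial, 9 oligodendrocyte, 6 choroid plexus, 8 pituitary, 7 blood and 11 hypothalamic neuron genes. At an unadjusted p under 0.05 these lists held 0 to 3 members each. With linalool, where 20% of all genes were called higher and 9.71% lower, Rgs5, a pericyte gene, fell by 0.65 (adjusted p = 2.89e-05). Astrocyte genes split, with Mlc1 higher by 0.54 and Slc1a2, a glutamate transporter, lower by 0.43 (adjusted p = 0.000106 and 9.34e-05). The other counts lie beside the same shares. Microglial genes had 2 members higher, oligodendrocyte genes 1 higher and 2 lower, blood genes 3 higher, pituitary genes 1 lower, choroid plexus genes 0 past the threshold (1 at an unadjusted p under 0.05), and hypothalamic neuron genes 2 higher, Npy and Sst. The part of these cell types in the receptor differences was not tested beyond the scores above.

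The ligands of the receptors did not pass in either comparison. Tnfsf11, the ligand of RANK, differed by 0.733 residual SDs after restraint (adjusted p = 0.537) and by -0.233 with linalool (adjusted p = 0.795). Tnfsf10, the second ligand of osteoprotegerin, differed by 0.229 (adjusted p = 0.869) and 1.25 residual SDs (adjusted p = 0.125). Lgr4, another receptor known to bind RANKL, differed by -0.00965 residual SDs after restraint (adjusted p = 0.996) and fell by 1.8 with linalool (adjusted p = 0.0455). Both ligands were compressed or nearly so, with group SDs of at most 0.0176 on the log2 scale. Lgr4 was compressed as well, with group SDs of at most 0.000327 and a linalool difference of -8.7e-05 on that scale.

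Of 39 measured genes of RANK signalling, of 44 listed, 1 passed after restraint, 0 higher and 1 lower. That is 2.56%, beside 0.71% of all genes called (0.485% higher, 0.225% lower), and the list's median difference was -0.00965 residual SDs beside 0.110 over all genes. The gene was Tnfaip3, which encodes A20, an enzyme that removes activating ubiquitin chains and limits NF-kappaB. Its signals were 7.47, 7.56, 7.66, 7.63, 7.60 and 7.59 in stressed rats and 7.89, 8.00, 7.97, 7.98, 8.12 and 8.11 in controls. The groups did not overlap, and Tnfaip3 fell by 0.43 (SE 0.0446, limma, adjusted p = 0.0117). Of the 39 genes 32 were compressed in set 1 and 30 in set 2, beside 80.9% and 81.0% of all genes.

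Without controls 4 to 6 the difference of Tnfaip3 was -0.37, the groups still did not overlap, and 2 of all genes passed in place of 101. In that setting 0 RANK signalling genes passed in limma (4 at an unadjusted p under 0.05, against 7 with all rats), and 0 passed with the meningeal or the endothelial score as a covariate (4 and 8). Without stressed rat 6, 3 passed, 1 higher and 2 lower. Other members near the threshold, named after their values were seen, were Nfkbia, the inhibitor that holds NF-kappaB in the cytoplasm, with a difference of 0.70 (adjusted p = 0.0959), and Jun, a subunit of the factor AP-1, with -0.22 (adjusted p = 0.0901). Traf6, the adaptor of RANK, differed by -0.266 residual SDs (adjusted p = 0.846), Nfkb1 by -0.408 (adjusted p = 0.75) and Nfatc1, the main factor downstream of RANK in osteoclasts, by -0.948 (adjusted p = 0.423).

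With linalool 14 of the 39 passed, 4 higher and 10 lower, which is 35.9% beside the 29.7% of all genes. The median difference was -0.37 residual SDs, beside 0.223 over all genes. Under quantile normalisation 1 was higher and 15 lower, and over all genes 987 were higher and 3954 lower. With each array centred on its median 1 was higher and 3 lower, and over all genes 904 were higher and 412 lower. Src, the kinase that osteoclasts need to resorb bone, fell by 0.31 (SE 0.0479, adjusted p = 0.00117), and its groups did not overlap, as for 14.2% of all genes in this comparison (10.5% higher, 3.7% lower). Gab2, an adaptor that binds RANK, fell by 3.61 residual SDs (adjusted p = 0.00137), and Cyld, which removes ubiquitin from TRAF6, fell by 0.24 (SE 0.0402, adjusted p = 0.00168). In the same 6 stress rats the SD of Src was 0.0016 in set 1 and 0.0823 in set 2. That of Cyld was 7.34e-05 in set 1 and 0.0723 in set 2. The spread of Src and Cyld in set 2 was thus nearly absent from the same arrays in set 1.

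Members that rose with linalool included Tyrobp, an adaptor that co-stimulates osteoclasts and marks microglia in brain, by 0.25 (SE 0.0436, adjusted p = 0.00235), and Tnfaip3, by 3.10 residual SDs (adjusted p = 0.00312) in values compressed to an SD under 0.01. Tyrobp in turn had an SD of 0.000184 in the stress rats of set 1 and 0.0793 in the same rats of set 2. The kinase Map3k3 fell by 2.84 residual SDs (adjusted p = 0.00479), Nfkb1, which encodes a subunit of NF-kappaB, fell by 2.46 (adjusted p = 0.0105) and Traf6 fell by 1.81 (adjusted p = 0.0378). Nfatc1 differed by 1.03 residual SDs (adjusted p = 0.204).

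**Figure D4:**
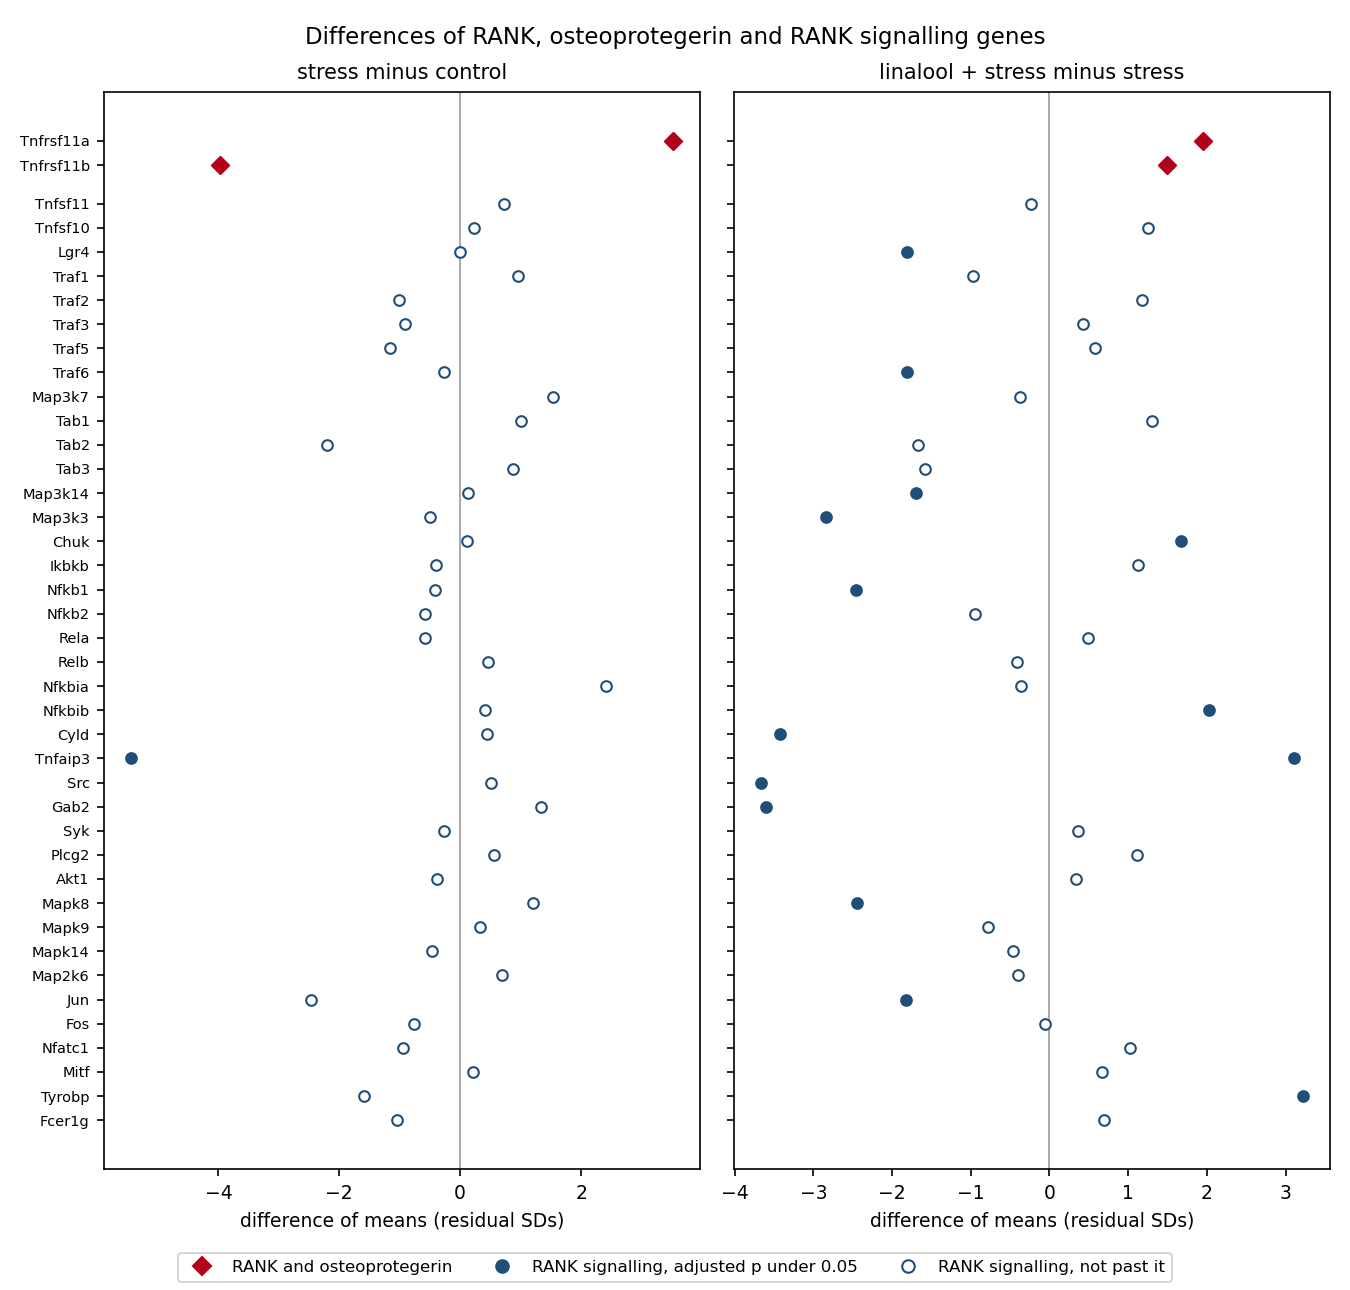
Differences of group means in residual SDs (horizontal axis) for both receptors (diamonds) and 39 RANK signalling genes (circles, filled where the adjusted p is under 0.05), one gene per row. After restraint (left) Tnfaip3 is the one filled circle, at -5.44; with linalool (right) 4 filled circles lie above 0 and 10 below it.

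Genes that RANK switches on in osteoclasts were examined as well, mostly known from bone. After restraint 0 of 8 measured passed in limma (2 at an unadjusted p under 0.05). With linalool 3 of 8 rose: Clcn7, a chloride transporter that supports acid secretion, by 3.33 residual SDs (adjusted p = 0.00205), the proton pump subunit Tcirg1 by 1.96 (adjusted p = 0.0328) and the protease Ctsk by 1.86 (adjusted p = 0.0344). The 3 genes also serve lysosomes in other cells. None fell. The 3 are 37.5% of 8 genes, beside 29.7% of all genes called and 20% called higher. The list's median was 0.56 residual SDs beside 0.223 over all genes. Of the 8 genes 5 were compressed in set 1 and 6 in set 2, so most of the list hardly varied within groups.

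Other members of the receptors' superfamily were examined next. After restraint 0 of 17 other measured receptors of the tumour necrosis factor superfamily and 0 of 10 other ligands passed in limma (2 of each at an unadjusted p under 0.05). With linalool 2 receptors rose and 3 fell, 29.4% of the 17, which is at the background of 29.7% of all genes. Tnfrsf1a, a receptor of tumour necrosis factor, rose by 2.30 residual SDs (adjusted p = 0.0128), and Tnfrsf12a, the receptor of TWEAK, by 1.79 (adjusted p = 0.0376). Tnfrsf1b fell by 2.44 residual SDs (adjusted p = 0.00958), Relt fell by 2.44 (adjusted p = 0.0116) and the death receptor Fas fell by 2.01 (adjusted p = 0.0317). Among ligands, Ltb rose by 1.98 and Tnfsf9 fell by 2.01 residual SDs (adjusted p = 0.0243 and 0.0225). Of the 17 receptors 13 were compressed in set 1 and 16 in set 2, and of the 10 ligands 9 in each set.

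Genes of the central fever response did not pass after restraint (0 of 15 in limma, 1 at an unadjusted p under 0.05). Ptger3, the prostaglandin E receptor through which fever runs in mice, differed by 0.854 residual SDs after restraint (adjusted p = 0.470) and by -0.658 with linalool (adjusted p = 0.417). Ptgs2, the inducible cyclooxygenase, differed by -0.29 (adjusted p = 0.424) and by 0.482 residual SDs (adjusted p = 0.563). With linalool 3 of 15 rose and 1 fell, which at 26.7% is near the 29.7% of all genes called. Il6st, the shared receptor subunit of the interleukin family of Il6, rose by 3.40 residual SDs (adjusted p = 0.00184), the interleukin receptor Il1r1 by 2.38 (adjusted p = 0.0117) and the prostaglandin synthase Ptges3 by 2.27 (adjusted p = 0.0150). The cytokine Il1b fell by 1.94 (adjusted p = 0.0267). Of the 15 genes 13 were compressed in set 1 and all 15 in set 2, beside 80.9% and 81.0% of all genes.

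Glucocorticoid-induced genes were examined because restraint releases these hormones. Of 25 measured, of 26 listed, 12 rose after restraint and none fell (48.0%, beside 0.485% of all genes called higher), with a median of 2.90 residual SDs; some members were listed because of earlier results on these rats, so the count is no independent evidence. Over all genes 1 was called higher without controls 4, 5 and 6 and 0 with either marker score, so at most that number of the 12 calls could remain there. Slc2a1, Sgk1, Bcl6, Klf9 and Acer2 rose by 0.36, 1.5, 0.55, 0.38 and 0.79 (adjusted p = 0.00307, 0.0117, 0.0117, 0.0123 and 0.0134). Nr3c1, the glucocorticoid receptor, differed by -1.28 residual SDs (adjusted p = 0.309). With linalool 3 rose and 1 fell, which at 16.0% is below the 29.7% of all genes called. Tle3, a corepressor, rose by 0.25 (limma, adjusted p = 9.56e-05).

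Osteoprotegerin's regulators in bone cells, members of the Wnt, vitamin D and growth factor systems, were the last group. After restraint 0 of 14 measured passed in limma (4 at an unadjusted p under 0.05), with a median of -0.51 residual SDs. With linalool 3 of the 14 passed (21.4%, beside 29.7% of all genes). Dkk3 rose by 0.33 (SE 0.0421, adjusted p = 0.000411), while Tgfb1 fell by 2.67 residual SDs (adjusted p = 0.00672) and Ctnnb1, which encodes beta-catenin, fell by 0.08 (adjusted p = 0.0112). Nr3c1 differed by -1.29 residual SDs (adjusted p = 0.117).

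The genes whose pattern was most like each receptor were ranked by Pearson's r, as a description. Over within-group deviations of 18 rats, Tnfrsf11a was most like Gfer (r = 0.871), Med4 (0.869), Spsb1 (0.860), Fras1 (0.809) and Ncoa2 (0.80). Tnfrsf11b was most like Zpbp2 (0.742), Slc38a2 (0.738), Tal1 (0.730), Fam149b1 (0.718) and Sparcl1 (0.710). Spsb1, a ubiquitin ligase adaptor, was also first for Tnfrsf11a over the levels of set 1 (0.974) and of set 2 (0.937), and Sparcl1, a secreted matrix protein, was also among the first 5 for Tnfrsf11b in set 2 (0.844). The arrays of a set share the group difference, and the sets share the stress rats.

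Over the 12 levels of set 1, where the group difference weighs most, Tnfrsf11a was next most like Gpd1, Ccdc51, Sephs2 and Pptc7 (r from 0.953 to 0.966) and most opposite to Kdr, Hhex and Per3 (r = -0.969, -0.961 and -0.944). Tnfrsf11b was most like Tnfaip3, Trib2, Zfp658, Slco1a4 and Tm4sf1 (r from 0.909 to 0.929) and most opposite to Cdkn1a, Bcl6 and Flvcr1 (r = -0.95, -0.940 and -0.940). These levels include the values by which the receptors were chosen, so they support nothing. Spsb1 itself had signals of 9.85 to 10.01 in stressed rats and 9.31 to 9.65 in controls, but was compressed in set 2. Gfer, Med4, Fras1 and Ncoa2 were compressed in both sets. The same held for Zpbp2, Fam149b1 and Sparcl1 among the genes most like Tnfrsf11b, and Slc38a2 was compressed in set 1. Ccdc51, Pptc7, Zfp658 and Flvcr1 were compressed in both sets as well.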

How the data were processed

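Total RNA (500 ng) of each hypothalamic block was labelled for a 3' array, per the labels' protocols. The deposited log2 signals per probe set (24 columns, 18 rats) were normalised by the authors in 2 sets of 12 arrays, per the series design text. The sources used here do not state how probe sets were summarized. The log2 scale was read from the values (5.59 to 14.93, column medians 8.13 to 8.19). The labels describe separate rats.

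Of 31099 probe sets, 57 array controls were left out; 20826 have 1 symbol, 436 several and 9780 none listed. By gene identifier 20758 matched RefSeq (GRCr8) and 0 symbols changed. A gene with several probe sets was represented by the one whose mean over all columns was highest. Each comparison was fitted over 14217 genes with limma 3.58.1 in R 4.3.3 (lmFit, eBayes, no filter, Benjamini-Hochberg, adjusted p threshold 0.05); the procedure was tested on simulated data. A list's score is the mean over its genes of each value minus the gene's mean, divided by its residual SD. Relations used 100000 permutations within groups. The receptors, lists and alternatives were chosen with earlier results of these data known. Of each list, genes past the threshold are named (at most 6, by p), besides fixed pathway genes and the most alike genes. Rats with the same replicate number correlated at 0.0866 to 0.226 (restraint) and -0.11 to 0.194 (linalool) in their deviations, and the labels state no pairing.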

Additional observations from a re-analysis of the deposited data

How the results depend on the processing

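The restraint differences, whose sign the choice of genes fixes, were 0.52 to 0.62 for Tnfrsf11a and -0.67 to -0.58 for Tnfrsf11b without 1 rat, and 0.40 for Tnfrsf11a with the endothelial score as a covariate. With linalool, Tnfrsf11a lost its call with median centring (0.28, adjusted p = 0.0532) and, without 1 rat, gave 0.23 to 0.32 (adjusted p = 0.0191 to 0.0555), past the threshold in 8 of 12; Tnfrsf11b gave 0.18 to 0.27 (adjusted p = 0.0489 to 0.137). With the replicate block, which rests on shared numbers alone (each rat correlated best with its own number in 2 of 6 pairs per set), adjusted p was 0.0851 for Tnfrsf11a (0.29) and 0.0276 for Tnfrsf11b (0.23). Genes called after restraint, 101, became 55 with quantile normalisation, 62 with median centring, 9 with the replicate block, 2 without controls 4 to 6, 0 with the meningeal or endothelial score in limma (1180 and 1101 at an unadjusted p under 0.05, against 2270), and 26 to 133 without 1 rat. Genes called with linalool, 4229 (2849 higher, 1380 lower), became 1316 with median centring, 4941 (987 higher, 3954 lower) with quantile normalisation and 3548 to 4187 without 1 rat. RANK signalling genes called were 0 after restraint without controls 4 to 6, with low-level genes, Tnfaip3 among them, left out, or with either score, and 1 to 3 without 1 rat; with linalool they were 4 with median centring, 9 with the endothelial score and 9 to 13 without 1 rat (9 without stress rat 2 or 4). With the 2 farthest rats left out the endothelial relations had r = -0.496 for Tnfrsf11a and 0.660 for Tnfrsf11b (adjusted p = 0.184 and 0.0924); with the mean of probe sets Tnfrsf11a had r = -0.624 (adjusted p = 0.0759). The cause of these changes was not tested. Tnfrsf11b has no linalool value when genes under the median level are left out. Signal over background is not given in the deposited values, so what it limits was not analysed here.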
